A study of Mus musculus with 37 samples.

Results

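The 47 genes described here encode proteins that copy DNA and prepare cells for S phase, and all 47 were found among the 35885 genes of the table by their symbols. They are a list of named replication factors, put together with earlier results of these data known. They were followed in 37 RNA sequencing libraries from femoral bone marrow (19 libraries) and spleen (18 libraries) of wild-type C57BL/6N mice. Social defeat is a psychosocial stress in which an aggressive mouse overpowers the test mouse, here in 1 bout per day. Marrow flushed from the femur was sampled from undefeated controls (3 libraries), and after 1 defeat (4 libraries), 4 defeats (3 libraries), 10 defeats (5 libraries) and 10 defeats followed by 1 week of rest (4 libraries). In spleen the same 5 groups held 4, 2, 2, 6 and 4 libraries. Both tissues are mixtures of many cell types, so in every result below fewer cells of a type and less RNA per cell cannot be told apart. Age and sex of the mice are not given in the sources used here.

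A replication origin is licensed in G1 phase, when the origin recognition complex (Orc1 and Orc6 among its subunits) with Cdc6 and Cdt1 loads the ring of Mcm2 to Mcm7 onto DNA. Cdc45 and the GINS proteins turn this ring into the active helicase, polymerase alpha with primase starts each strand, and polymerases delta and epsilon extend it on the sliding clamp PCNA, which replication factor C loads. Ribonucleotide reductase, thymidylate synthase and thymidine kinase 1 supply the nucleotides, E-type cyclins with CDK2 drive cells into S phase, and E2F factors transcribe many of these genes. In adult mice bone marrow is the main site of blood formation, and the spleen can become a further site, mostly of red cell formation, under stress.

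Promoters of 39 of the 47 genes were found in the RefSeq table (GRCm38.p6), which gives 250 bases before and 50 after each start site. Spelled TTTCCCGC, TTTCGCGC, TTTGCCGC or TTTGGCGC and read on both strands, the core word bound by E2F factors was present in 14 of these 39 (35.9%), against 704 of 27025 genes of that table (2.60%). A match of letters is a description and not a shown site, and some of these words overlap each other. The following stretches, in capitals where they carry a word, are shown because their genes recur in the results: Mcm5 (chr8:75109316-75109407, plus strand), Mcm6 (chr1:128359706-128359855, minus strand), Orc1 (chr4:108579417-108579444, plus strand), Cdc6 (chr11:98908003-98908030, plus strand) and Uhrf1 (chr17:56304118-56304145, plus strand).
Mcm5: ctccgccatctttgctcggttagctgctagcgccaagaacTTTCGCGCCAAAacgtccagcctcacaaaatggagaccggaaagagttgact
Mcm6: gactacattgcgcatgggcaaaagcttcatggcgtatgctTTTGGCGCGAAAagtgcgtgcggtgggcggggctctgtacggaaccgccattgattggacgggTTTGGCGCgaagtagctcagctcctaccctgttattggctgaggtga
Orc1: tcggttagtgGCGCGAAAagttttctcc
Cdc6: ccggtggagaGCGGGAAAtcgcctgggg
Uhrf1: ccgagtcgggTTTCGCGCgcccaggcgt
In the first of these the words TTTCGCGC and, on the other strand, TTTGGCGC overlap, and Mcm6 carries the same overlapping pair and a further word downstream. After 10 defeats, members with a word had a median log2 change of 1.05 in spleen and -0.40 in marrow, and the 25 matched members without one 1.46 and -0.29.

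The authors' values are scaled abundances rather than counts of reads. They were taken to be per length of transcript, which was not tested against other scalings, and comparisons of level between genes rest on this. The spacing of low values put the least covered member, Orc1 in spleen control C2, at about 47.1 reads, and the median member at 254 to 4740 reads by library. Changes are differences of log2(value + 1) with their standard errors (SE), which understate changes of low genes, and a gene was called at an adjusted p under 0.05 by limma. In spleen 5 libraries stood apart. D6, D7, D9 and D10 after 10 defeats and D2 after rest had column totals of 1539153 to 2652290 and log2 values that declined by more than 0.3 per doubling of transcript length relative to controls. Their GC slopes were -0.647 to -0.207 log2 units per 10 points of GC, against -0.153 to 0.106 in spleen controls. For the members named in spleen, values without these 5 libraries are given where they move a fold by over 1.5 times or end a call. D1 after rest, with a length slope of -0.264 beside -0.064 and -0.088 in D3 and D8, was not among the 5. It stays in every result without the steep libraries. Control spleen had 10 of 14 mature B cell genes and 15 of 15 T cell genes higher than control marrow, and 15 of 15 mature neutrophil genes lower, as the tissue labels say.

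Undefeated marrow held more replication transcripts than undefeated spleen. Of the 47 members, 43 were lower in control spleen and none higher, where 46.2% of all 14513 genes tested were called (27.1% higher, 19.2% lower); the median member differed by -1.38, and the median of all genes by 0.10. The members not called were Gins4, Rfc1, Rpa1 and Rpa3. The sliding clamp gene Pcna had the highest value of the 47 in both tissues, 256 ± 21.8 in marrow (SD, n = 3) and 106 ± 18.6 in spleen (SD, n = 4). The lowest was Gins3 in marrow, at 7.02 ± 0.503, and Orc1 in spleen, at 1.86 ± 0.717.

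The widest gap between control tissues was that of Rrm2, the small and cell-cycle-regulated subunit of ribonucleotide reductase. Its values were 231, 181 and 224 in marrow and 34.8, 25.5, 48.7 and 25.9 in spleen, a difference of -2.66 ± 0.28 (adjusted p = 2.77e-09). Every marrow value lay above every spleen value. Cdc6, which helps load the helicase, was lower in spleen by -2.40 ± 0.24, and Uhrf1, which carries DNA methylation through replication, by -2.30 ± 0.27. All 10 helicase and loading genes, all 7 polymerase and primase genes, all 6 nucleotide supply genes, all 4 chromatin copying genes and all 3 G1/S regulators were lower in spleen. The proliferating lineages differed in the same direction, with 20 of 20 erythroid and 9 of 12 early granule genes lower in control spleen. Their part in the members' difference was not tested.

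**Figure D1:**
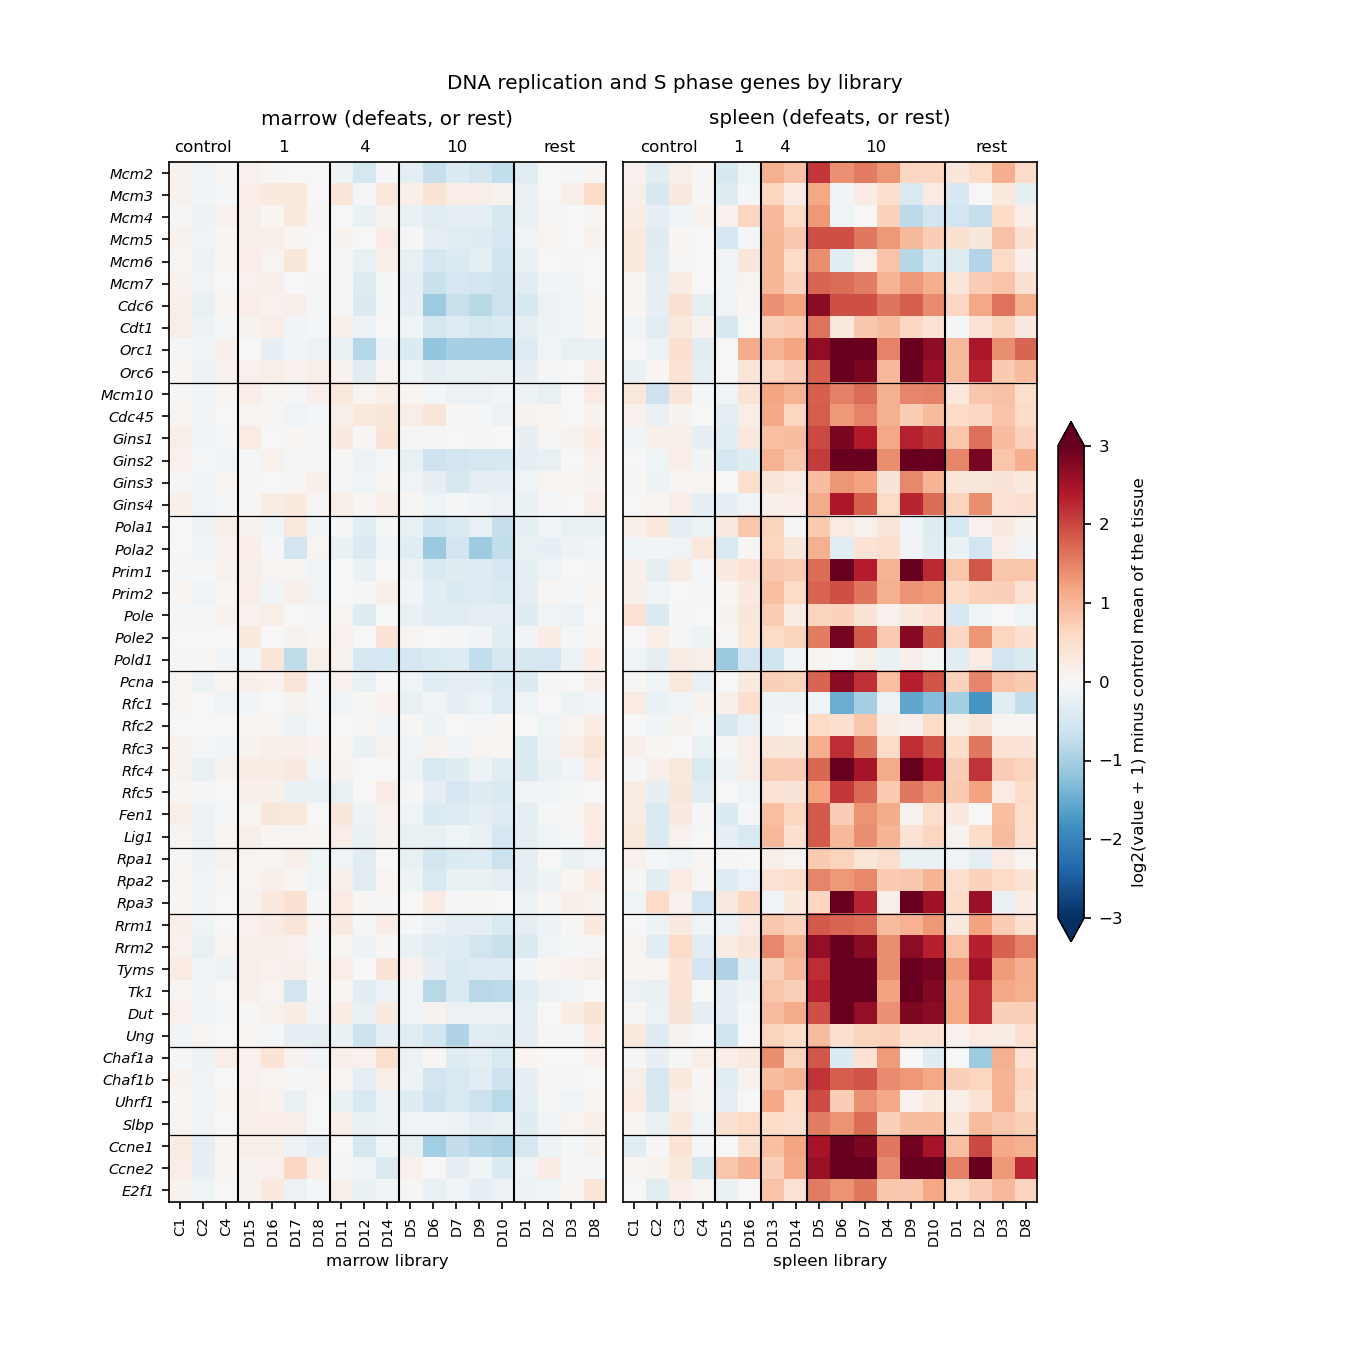
Each of the 47 genes (rows, grouped by role with lines between roles) in each marrow and spleen library (columns, grouped by defeats or rest), coloured by log2(value + 1) minus the mean of the tissue's controls. Colours end at 3 on either side, marrow shifts are pale, and the spleen columns after 10 defeats are the reddest. In some of those columns Rfc1, Mcm4, Mcm6, Pola1, Pola2, Rpa1 and Chaf1a lie below all controls.

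In marrow, replication genes were not called after 1 or 4 defeats. After 1 defeat none of 47 was called by limma (0.00804% of all genes), none had an unadjusted p under 0.05, and the median was 0.07. After 4 defeats again none was called, although 20% of all genes were (7.07% higher, 13% lower), and the median change of members was -0.02 with 19 positive and 28 negative. At that time 4 members had an unadjusted p under 0.05, and the share of all genes at that level is not given here. Library D12 was the lowest of its group, with 28 of 47 members below all controls, where 49.6% of all genes were. D11 and D14 had 7 and 9 members below, where 48.9% and 46.5% of all genes were.

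After 10 defeats 25 of the 47 were lower in marrow and none higher. Of all genes 45.8% were called, 17.5% as higher and 28.3% as lower, and the median member changed by -0.30 against -0.13 for all genes. By role, 8 of 10 helicase and loading genes fell, 5 of 7 polymerase and primase genes, 3 of 8 clamp and ligation genes, 3 of 6 nucleotide supply genes, 2 of 6 helicase activation genes, 2 of 4 chromatin genes, and 1 each of the 3 single-strand binding and 3 G1/S genes. Without control C1, and likewise without control C4, 16 members were called.

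Orc1, the largest subunit of the origin recognition complex, on chromosome 4 (108579423 to 108614833, GRCm38), fell most. It read 10.1, 9.74 and 11.9 in controls and 7.71, 4.13, 4.77, 4.76 and 4.68 after 10 defeats. The groups did not overlap, and D5 was nearest to controls. The change was -0.92 ± 0.17 (adjusted p = 0.000553). Pola2, the regulatory subunit of polymerase alpha, read 37.9, 35.0 and 41.9 in controls and 30.2, 17.2, 25.1, 17.8 and 22.4 after 10 defeats, and fell by 0.76 ± 0.17 (adjusted p = 0.00219). Cdc6 read 35.6, 27.4 and 33.3 against 26.8, 14.6, 19.8, 17.4 and 20.2, and fell by 0.69 ± 0.16 (adjusted p = 0.00295). Both again had D5 as the highest of the defeated libraries.

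Among the other fixed genes, Mcm2, a helicase subunit, fell from 63.2 ± 5.40 (SD, n = 3) to 43.5 ± 5.73 (SD, n = 5), a change of -0.54 ± 0.12. Mcm5 fell by 0.30 ± 0.10, and was not called under median-ratio rescaling (adjusted p = 0.0638) or equal column totals (adjusted p = 0.0760). Rrm2 fell by 0.43 ± 0.13, Uhrf1 by 0.58 ± 0.12, and Ccne1, cyclin E1, by 0.75 ± 0.19. Pcna, at -0.29 ± 0.12 (adjusted p = 0.0588), and Tyms, thymidylate synthase, at -0.27 ± 0.13 (adjusted p = 0.0995), were not called. Ccne2, cyclin E2, was at -0.12 ± 0.14 where cyclin E1 fell, but a difference between them was not tested. Mcm3 was the helicase subunit with a positive sign, at 0.21 ± 0.14 and not called, with values of 85.9 to 106 after 10 defeats and 75.4 to 86.4 in controls.

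Cell type markers moved in marrow at the same time. After 10 defeats 15 of 20 erythroid genes fell (median -1.06, mean log2 level 7.41 ± 0.13 in controls and 6.40 ± 0.60 after 10 defeats), 13 of 14 B precursor genes fell (median -2.02), and 10 of 12 early granule genes rose (median 0.80). Of 22 mitosis and G2/M genes 11 fell and none rose. The part of these cell types in the replication genes' change was not tested. After 4 defeats 10 of 14 B precursor genes were lower.

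Marrow replication genes stood higher after a week of rest than after 10 defeats. Rested marrow against controls gave no call among members or among all genes (0% called), with no member at an unadjusted p under 0.05 and a median of -0.05. Rested marrow against 10 defeats had 17 of 47 higher and none lower, with 21.7% of all genes called (13.8% higher, 7.91% lower) and 44 members of positive sign. Orc1 read 7.79, 9.80, 8.86 and 8.97 after rest, above all 5 values after 10 defeats, and rose by 0.69 ± 0.15 (adjusted p = 0.00685). Pola2 rose by 0.59 ± 0.16, and Uhrf1, at 66.2, 78.6, 74.2 and 84.2 after rest, by 0.49 ± 0.11. Of the helicase and loading genes 7 of 10 rose, and none of the 8 clamp and ligation genes did. Library D1 stayed lower than the other rested ones, with 41 of 47 members below all controls, where 34.8% of all genes were. D2, D3 and D8 had 14, 11 and 2 members below, where 29.5%, 37.7% and 42.3% of all genes were. Left out one at a time, D6, D7 and D10 of the defeated libraries and D2, D3 and D8 of the rested ones lowered the count of 17 to 10, 10, 11, 6, 8 and 6. Marker levels moved at the same step: mean log2 levels went from 2.49 to 3.73 for B precursor genes (11 of 14 rose), from 6.40 to 6.97 for erythroid genes (6 of 20 rose), from 3.57 to 5.25 for megakaryocyte genes (9 of 10 rose) and from 10.76 to 10.14 for mature neutrophil genes (9 of 15 fell). Their part in the members' change was not tested.

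From 4 to 10 defeats, marrow had 3 members lower and none higher (2.44% of all genes called, 1.66% higher and 0.788% lower): Chaf1a, of the histone-depositing CAF-1 complex, by -0.50 ± 0.13, Mcm5 by -0.43 ± 0.10, and Gins2 by -0.42 ± 0.11. Chaf1a read 15.5, 15.3 and 19.9 after 4 defeats and 12.2, 14.2, 10.7, 11.2 and 9.83 after 10. The groups were apart, but the count was unsteady: it was 0 without any 1 of D11, D14, D7, D9 or D10, 13 without D12 and 18 without D5. Of the members, 33 had an unadjusted p under 0.05, but the share of all genes at that level is not given here.

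In spleen nothing was called among members after 1 defeat by limma (0.688% of all genes, 0.624% higher and 0.0645% lower), with 1 member at an unadjusted p under 0.05 and a median of -0.01. Both 1-defeat libraries had a GC trend apart from controls, with slopes of -0.474 and -0.463 log2 units per 10 points of GC against -0.153 to 0.106, and the members' changes correlated with GC content at r = -0.70 over the 47 genes. After 4 defeats still none was called and 0.043% of all genes were, yet the 2 libraries lay high. A positive sign was found for 44 of 47 members, and the median was 0.76 against -0.04 for all genes. In D13 and D14, 42 and 39 members lay above all 4 controls, where 30.8% and 18.7% of all genes did. Below all controls lay 1 and 0 members, where 29.0% of all genes did in each library. Of the members 19 had an unadjusted p under 0.05, but the share of all genes at that level is not given here. Cdc6 read 15.2 and 13.3 after 4 defeats against 5.49, 4.25, 7.53 and 4.17 in controls, a difference of 1.29 ± 0.32 (adjusted p = 0.176). Rrm2 read 89.8 and 69.4 against 25.5 to 48.7 in controls, at 1.25 ± 0.42. Both sets of values lay above the controls, but their differences did not pass the test.

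After 10 defeats 37 of 47 replication genes rose in spleen and 1, Rfc1, fell. Of all genes 58.8% were called, 16.8% as higher and 41.9% as lower, and the median of members was 1.42 where that of all genes was -0.36. All 6 helicase activation genes rose, all 6 nucleotide supply genes and all 3 G1/S regulators, 7 of 8 clamp and ligation genes, 7 of 10 helicase and loading genes, 3 of 4 chromatin genes, 2 of 3 single-strand binding genes and 3 of 7 polymerase and primase genes. Every one of the 6 libraries had between 35 and 45 of the 47 members above all controls, where 19.8% to 31.3% of all genes were. With columns rescaled to equal totals 21 members were higher and 1 lower, where 795 of 14323 genes were higher and 7366 lower. The median of all genes was then -0.84, and Rfc2 and Ung changed sign.

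The G1/S regulators and the nucleotide enzymes had the highest medians of the roles, 2.56 and 2.46. Ccne2 read 5.40, 5.61, 6.57 and 3.38 in controls, and ranged from 15.7 to 281 with a median of 67.0 after 10 defeats. The change was 3.57 ± 0.60 (adjusted p = 0.000428), and all 6 libraries lay above all controls. The 2 highest values, 281 in D6 and 184 in D9, came from steep libraries, which also had the steepest GC slopes of the 6 (-0.647 and -0.615). The steep D7 and D10 read 77.3 and 56.7, with GC slopes of -0.207 and -0.303. The Ccne2 transcript has the median length of the members (3006 bp) and 36.3% GC, and the part of either trend in its values was not tested. D4 and D5 without the steep length trend read 15.7 and 35.9, giving 2.02 without the steep libraries. Ccne1 read 9.95 to 17.1 in controls and 39.8 to 116, median 85.7, after 10 defeats (2.56 ± 0.28, adjusted p = 3.46e-05, and 2.03 without the steep libraries). E2f1, the founding E2F factor, rose by 1.21 ± 0.19.

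Tyms, which makes thymidylate and lies on chromosome 5 (30058202 to 30073617), read 26.0, 26.4, 33.4 and 16.4 in control spleen and 66.8 to 468, median 217, after 10 defeats. It rose by 2.90 ± 0.43 (adjusted p = 0.000223) and by 1.81 without the steep libraries. Tk1, the S phase thymidine kinase, rose by 2.67 ± 0.36, Rrm2 by 2.46 ± 0.31 and Dut, which keeps uracil out of DNA by destroying dUTP, by 2.46 ± 0.35. Without the steep libraries these were 1.75 for Tk1, 2.02 for Rrm2 and 1.65 for Dut, all still called. Rrm2 reached 87.4 to 267, median 210, so that spleen after 10 defeats overlapped the 181 to 231 of control marrow. Ung, which removes uracil from DNA, rose least of this group, by 0.60 ± 0.17, and changed sign with equal column totals.

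Of the helicase activators, Gins2 rose by 2.98 ± 0.46 (adjusted p = 0.000271), from 8.08, 7.40, 9.58 and 7.71 in controls to 23.2 to 168, median 82.4. The other 3 GINS subunits rose by 2.13 ± 0.27 (Gins1), 1.05 ± 0.18 (Gins3) and 1.64 ± 0.30 (Gins4), so the complex's 4 genes shared a direction but not a size. Without the steep libraries the 4 stood closer, at 1.57, 1.75, 0.66 and 0.85 for Gins1 to Gins4. Pcna rose from 89.7 to 132 in controls to 198 to 693, median 435 (1.96 ± 0.28, and 1.32 without the steep libraries). Primase rose in both subunits (Prim1 2.30 ± 0.36, Prim2 1.49 ± 0.17), and the polymerase epsilon subunit Pole2 by 1.93 ± 0.32. Prim1, Prim2 and Pole2 were higher by 1.35, 1.41 and 1.15 without the steep libraries. The catalytic subunits Pola1, Pole and Pold1 were at 0.17 ± 0.23, 0.43 ± 0.18 and 0.04 ± 0.18 and were not called. Pole was called, however, with quantile normalization (0.88, adjusted p = 0.0032 by limma), median-ratio rescaling (0.65, adjusted p = 0.0102) and length and GC trends removed (1.00, adjusted p = 0.00179), and Pola1 with quantile normalization (0.64, adjusted p = 0.0188).

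The 6 subunits of the MCM ring, which work in equal numbers, split. Mcm2 rose by 1.27 ± 0.26, Mcm5 by 1.42 ± 0.24 and Mcm7 by 1.40 ± 0.18, while Mcm3, Mcm4 and Mcm6 were at 0.26 ± 0.26, 0.09 ± 0.35 and 0.13 ± 0.38 and were not called. Mcm6 read 45.1, 29.4, 37.7 and 36.8 in controls, and 98.6 in D5 and 67.9 in D4, but 29.5, 40.1, 19.9 and 27.1 in D6, D7, D9 and D10. Only the libraries without the steep trend were above all controls. Mcm5 by contrast read 57.5 to 132, median 94.2, against 26.1 to 41.7, with all 6 above. The mean log2 level of Mcm3, Mcm4 and Mcm6 minus that of Mcm2, Mcm5 and Mcm7, a grouping chosen after the values were seen, was -0.05 to 0.10 in control spleen. It was -0.53 and -0.63 in D4 and D5 and -1.84 to -1.07 in the 4 steep libraries, and after rest it was -1.09 in the steep D2 and -0.87, -0.45 and -0.46 in D1, D3 and D8. Without the steep libraries Mcm3, Mcm4 and Mcm6 were higher by 0.81, 1.00 and 1.13 (adjusted p = 0.0452, 0.0282 and 0.0128 by limma, with 2 libraries after 10 defeats). With length and GC trends removed they were at 0.42, 0.02 and 0.27 and not called, beside 1.42, 1.55 and 1.47 for Mcm2, Mcm5 and Mcm7. With equal column totals none of the 6 was called, and Mcm3, Mcm4 and Mcm6 turned to -0.46, -0.61 and -0.59.

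**Figure D2:**
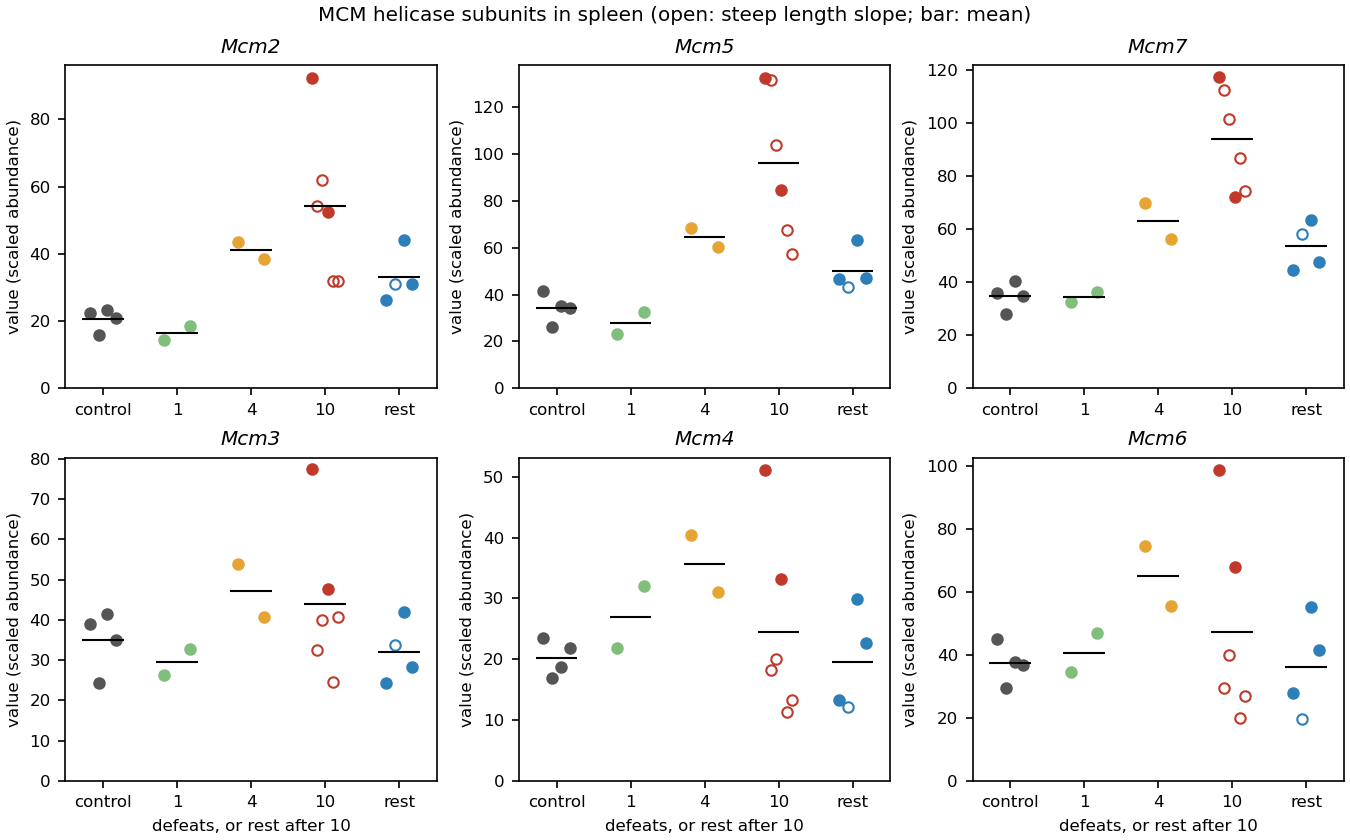
Values of the 6 MCM subunits in each spleen library (vertical axis from 0, scaled abundance) by number of defeats or rest, with bars at group means and open points for the 5 libraries with a steep length trend. In the upper row all 10-defeat points of Mcm5 and Mcm7 lie above controls, and in the lower row only the filled ones do for Mcm6, at 67.9 and 98.6.

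Change and transcript length went together among members in these libraries. The 23 members with transcripts shorter than the median of 3006 bp had a median change of 1.62 in spleen after 10 defeats and the other 24 one of 0.99, and the correlation of change with log2 length over the 47 genes was r = -0.46. Genes in the same libraries are not independent, so no p is given. Without the steep libraries the medians were 1.38 and 1.37 and r was -0.11. The correlation of change with GC content was r = -0.29 with these libraries and 0.01 without. Some long transcripts rose far too, with Tyms (3884 bp, 46.7% GC) at 2.90 and Gins2 (3900 bp, 53.4% GC) at 2.98. The parts of length and GC were not told apart by a test. Rpa3 encodes the small subunit of the single-strand binding protein. Its transcript is the shortest of the members, at 682 bp, and the lowest in GC, at 34.2%. It read 31.7 in D4 and 45.3 in D5 but 142 to 356 in the steep libraries, against 18.9 to 43.0 in controls. Its change of 2.05 ± 0.62 was 0.39 without them and not called (adjusted p = 0.325), and 1.19 and called with the trends removed (adjusted p = 0.00523). Rfc1, the large subunit of the clamp loader, read 15.6 in D4 and 16.3 in D5 but 5.40 to 8.35 in the others, against 15.2 to 21.3 in controls. Its fall, -0.94 ± 0.31 (adjusted p = 0.017), was -0.15 without the steep libraries and not called (adjusted p = 0.585), but -0.77 and called with the trends removed (adjusted p = 0.0189), while Rfc3, Rfc4 and Rfc5 rose by 1.60, 2.40 and 1.46 with them and were higher by 0.83, 1.41 and 1.00 without. In all, 41 members were higher and none lower without the steep libraries, where 23.8% of all genes were called (1172 higher and 2071 lower of 13649). Once trends of length and GC were taken out library by library, 40 members were higher and 1 lower. In that setting 57.9% of all genes were called (2142 higher and 5939 lower of 13945).

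**Figure D3:**
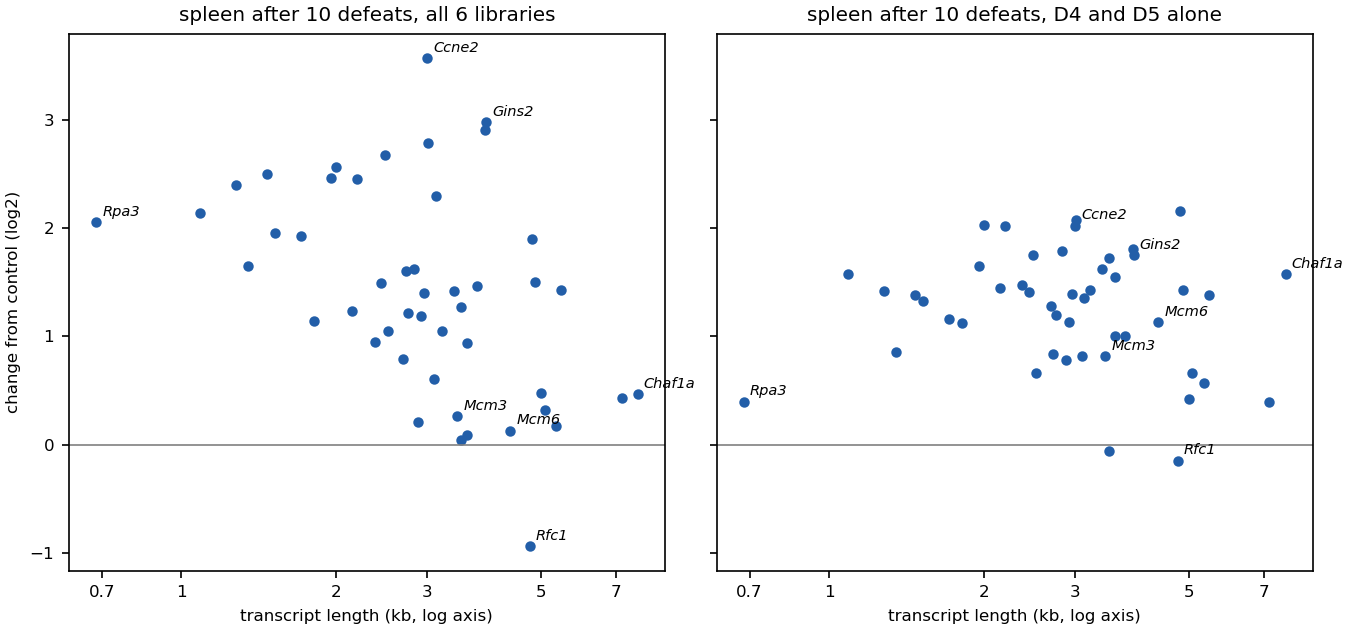
Change of each member in spleen after 10 defeats (log2, vertical axis) against its transcript length (kb, log axis), with all 6 libraries on the left and with the 4 steep libraries left out on the right. On the left short transcripts lie higher (r = -0.46), and on the right, with r = -0.11, Rpa3 and Rfc1 lie at 0.39 and -0.15 and Ccne2 has come down from 3.57 to 2.02.

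Erythroid and early granule (neutrophil precursor) markers moved with these genes in spleen. After 10 defeats 20 of 20 erythroid genes rose (median 3.08), their mean log2 level going from 4.23 ± 0.92 in controls to 7.23 ± 0.63 (SD, n = 4 and 6), and 12 globin genes made up 38.8% of column totals against 14.6%. The rise covered 7 of 12 early granule genes and 16 of 22 mitosis and G2/M genes, and all 14 mature B cell genes and 14 of 15 T cell genes fell. Control C3 had the highest erythroid level of the controls. Of the 8 fixed members, Mcm2, Pcna, Rrm2, Tyms, Cdc6 and Ccne1 had their highest control value in C3. Mcm5 and Uhrf1 had theirs in C1 (41.7 against 34.9 in C3, and 18.6 against 17.5). Among libraries after 10 defeats D4 had the lowest erythroid level and the lowest members' level. The part of these cell types in the replication genes' rise was not tested.

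**Figure D4:**
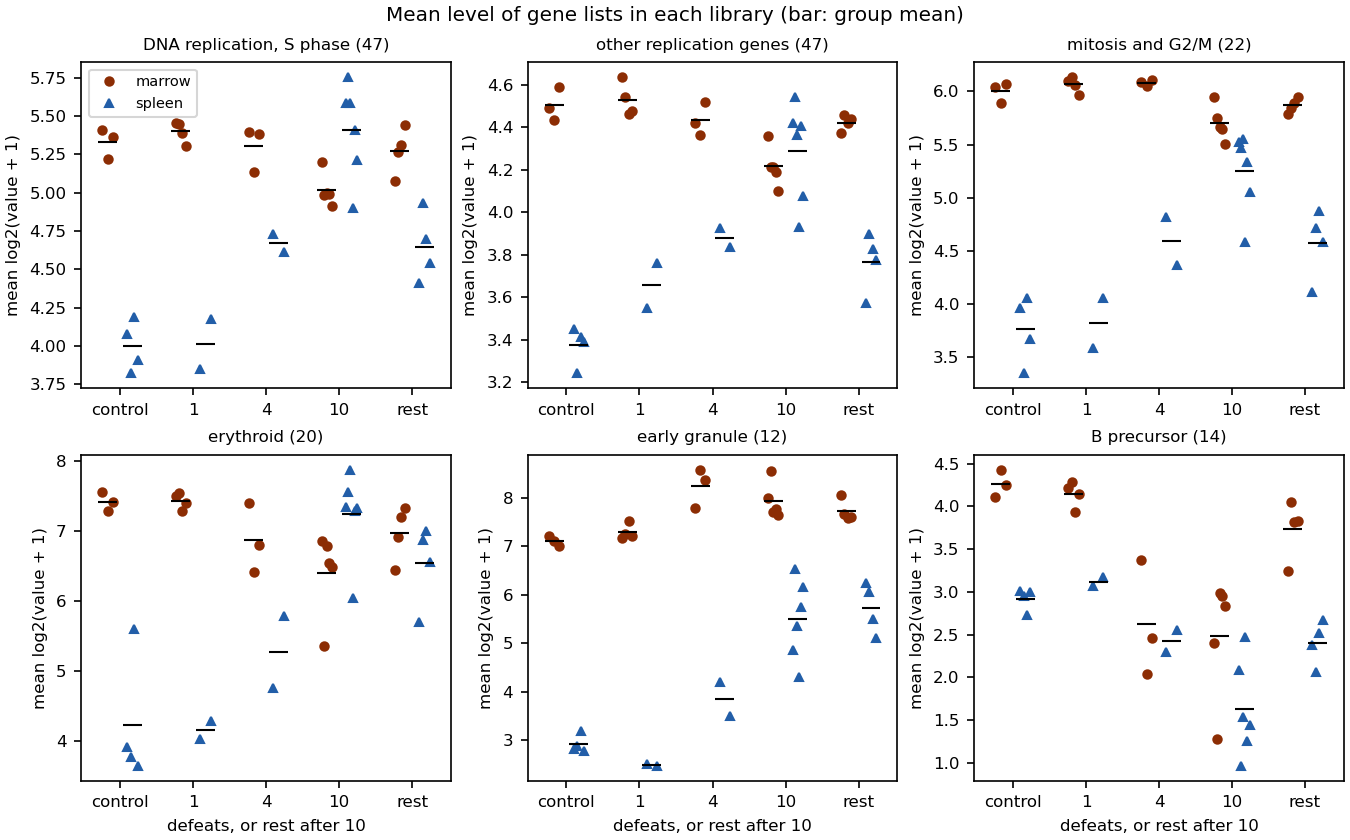
Mean log2(value + 1) of 6 gene lists in each library (points for marrow, triangles for spleen, bars at group means) by defeats or rest. The replication panel shows marrow falling from 5.33 to 5.02 and spleen climbing from 4.00 to 5.41 after 10 defeats, and the erythroid panel moves in the same directions, from 7.41 to 6.40 and from 4.23 to 7.23.

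From 4 to 10 defeats the spleen had 20 members higher and none lower (15.3% of all genes called, 4.12% higher and 11.2% lower), led by Ccne2 (2.64 ± 0.76), Tyms (2.06 ± 0.55) and Gins2 (2.05 ± 0.59). No member was called without D13, D14, D6, D7, D9 or D10 left out in turn, nor without the steep libraries, where the median difference was 0.61 against 0.65 with them and Ccne2, Tyms and Gins2 were at 1.10, 0.96 and 0.82. With equal column totals 5 were called and the median member turned to -0.34, with that of all genes lower still.

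A week after the last of 10 defeats, 7 members were still higher in spleen than in controls and none lower (7.26% of all genes called, 3.02% higher and 4.24% lower): Orc1, Rrm2, Tk1, Cdc6, Ccne1, Gins1 and E2f1. Orc1 read 4.49, 14.2, 6.36 and 8.44 after rest against 1.77, 1.52, 2.89 and 1.26 in controls, the groups apart, at 1.64 ± 0.40 (adjusted p = 0.0241). Rrm2 read 60.9, 168, 113 and 94.9 (1.63 ± 0.34, adjusted p = 0.0134), and Tk1 63.0, 135, 64.7 and 60.3 against 24.0 to 37.8 (1.39 ± 0.39). In each of these D2, a steep library, was the highest. Over all members the median was 0.66 against -0.18 for all genes. In D1, D2, D3 and D8, 30, 36, 38 and 35 members lay above all controls, where 24.1%, 29.8%, 20.3% and 20.5% of all genes did. Below all controls lay 7, 6, 2 and 2 members, where 44.3%, 53.8%, 33.5% and 34.8% of all genes did. The count of called members was 1 without C1, 0 without C2, C4 or D2, and 4 without D1 or D3. It was 21 higher and 1 lower without all 5 steep libraries, where 16.6% of all genes were called (752 higher and 1508 lower of 13649). That fit kept D1, whose length slope was -0.264. With equal column totals it was 0, and the median of all genes moved to -0.66. Markers also stood apart from controls in rested spleen: mean log2 levels went from 4.23 to 6.53 for erythroid genes (16 of 20 higher), from 2.92 to 5.73 for early granule genes (7 of 12 higher) and from 3.11 to 6.65 for mature neutrophil genes (11 of 15 higher). Their part was not tested.

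Against 10 defeats, rested spleen had all 47 members at a lower mean, with 2 of them called (0.567% of all genes, 0.272% higher and 0.294% lower). Prim2, the large primase subunit, read 11.1, 12.4, 12.7 and 10.3 after rest and 16.5 to 30.6, median 22.2, after 10 defeats, and fell by 0.89 ± 0.17 (adjusted p = 0.0341). Ccne1 fell by 1.28 ± 0.28 (adjusted p = 0.0489). The median was -0.76 where all genes had 0.15. An unadjusted p under 0.05 was found for 32 members, but the share of all genes at that level is not given here. Leaving out D4, in which the members' level was the lowest after 10 defeats, gave 28 lower. The count was 4 without D2, 1 without D9 or D10, and 0 without D5, D6, D7, D1, D3 or D8. It was also 0 without the steep libraries, where Prim2 was at -0.84 and Ccne1 at -0.99.

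The response to 10 defeats differed between the tissues for 40 of 47 members, all higher in spleen (43.1% of all genes called, 16.1% as higher and 27% as lower). Orc1 differed by 3.70 ± 0.42 (adjusted p = 2.49e-07), having fallen by 0.92 in marrow and risen by 2.78 in spleen (2.07 without the steep libraries). Ccne2 differed by 3.69 ± 0.68 and Gins2 by 3.46 ± 0.52. Without the steep libraries Orc1, Ccne2 and Gins2 differed by 2.99, 2.14 and 2.23, and Cdc6 (2.85) and Ccne1 (2.78) lay above the last pair. Mcm3, Mcm4, Mcm6, Pola1, Pold1, Rfc1 and Chaf1a were not called. The count was 40 to 41 with any 1 library left out, 43 without the steep libraries (32.1% of all genes called) and 24 with equal column totals (36.7% of all genes called). Erythroid genes split likewise, with 20 of 20 higher in spleen in this comparison (median 4.09), and their part was not tested.

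**Figure D5:**
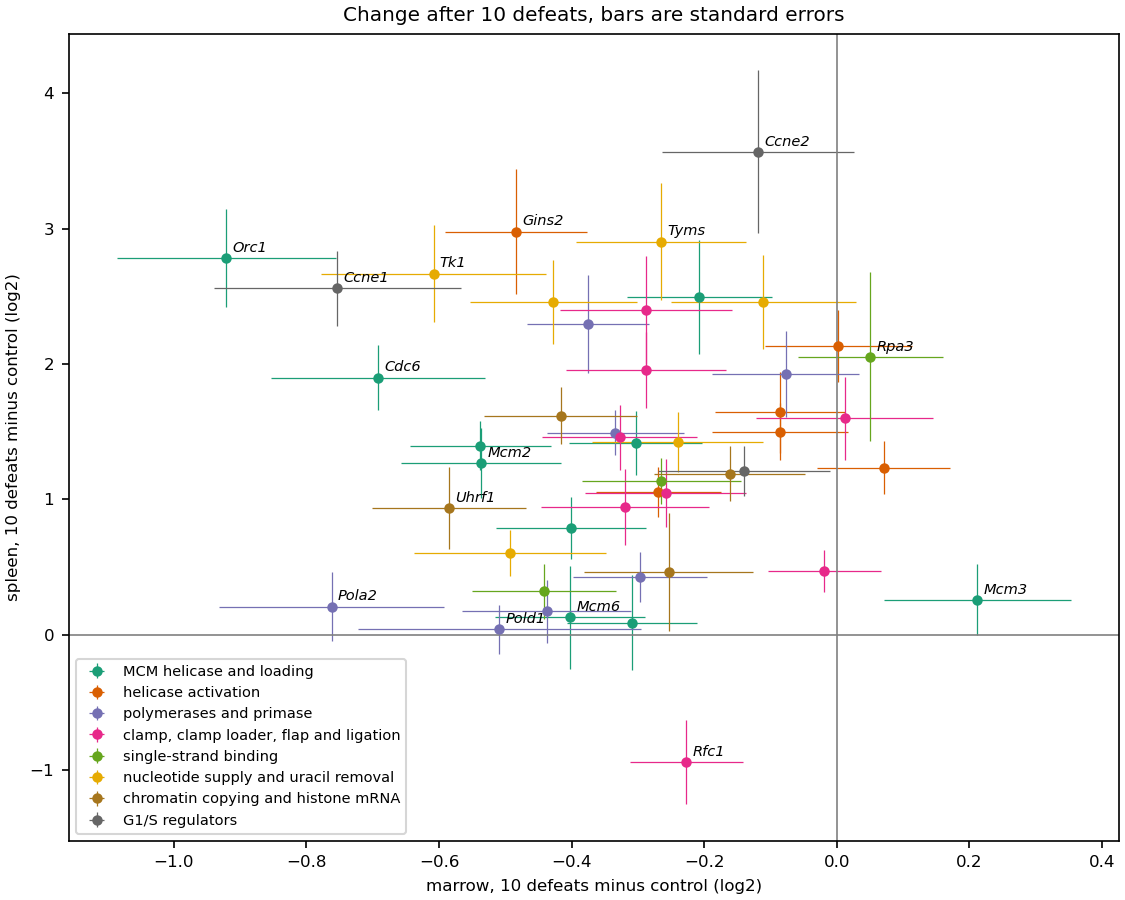
Change of each member after 10 defeats in marrow (horizontal axis) and in spleen (vertical axis), both in log2 units, with bars for standard errors and colours for roles. Most points lie left of 0 and above 0, with Orc1 farthest left at -0.92 and Ccne2 highest at 3.57, and Rfc1 alone below 0 in spleen.

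The step from 10 defeats to rest also differed between tissues, with 28 members lower in spleen relative to marrow and none higher (10.2% of all genes called, 4.82% higher and 5.36% lower). Ccne1 differed by -1.89 ± 0.33, Orc1 by -1.83 ± 0.41 and Gins2 by -1.80 ± 0.49. Ccne1 and Orc1 differed by -1.60 and -1.39 without the steep libraries, and Gins2 was closer to 0 than either. All 6 nucleotide supply genes and 5 of 6 helicase activation genes were among the 28. The comparison shares the 10-defeat libraries with the one before it, so the pair is not independent.

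Another 47 genes of replication and S phase, such as further licensing factors and checkpoint genes, were also followed. In marrow after 10 defeats 21 fell and 2 rose, and in spleen 32 rose and 1 fell, with medians of -0.29 and 0.99, where 28.3% of all genes were lower in marrow, 16.8% higher in spleen, and the medians of all genes were -0.13 and -0.36. Named by smallest p, Recql4, a helicase of replication initiation, rose in spleen from a mean of 1.07 to 4.89, Ccna2, the S phase cyclin A2, by 2.21 ± 0.25, and Dscc1, of an alternative clamp loader, by 2.47 ± 0.30. In marrow E2f2, Wdhd1 (a polymerase alpha anchor) and Orc5 fell by 0.49 ± 0.10, 0.76 ± 0.16 and 0.69 ± 0.15. After 4 defeats, when no member was called, marrow had Cdc25a, a phosphatase that activates CDK2, higher by 0.65 ± 0.16, Tfdp1, the partner of E2F factors, higher by 0.41 ± 0.13, and Dck, deoxycytidine kinase, lower by 0.50 ± 0.15. In rested spleen against controls 8 of these 47 were higher and none lower (3.02% of all genes higher), with Ccna2 at 1.37 ± 0.27.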

How the data were processed

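The values of the deposited table are a signal, an abundance that the authors had scaled. Per the submitters' processing notes, kallisto 0.46.1 and sleuth were used, named without their roles, with the build GRCm38. Neither the exported quantity nor the scaling is given in the sources used here. Column totals ran from 657918 to 2652290. Read counts were not analysed here, so depth was estimated from steps between low values of 9751 single-transcript genes. Values per length of transcript and fragments of 200 bp were assumed. By library, 55.7% to 71.4% of these low values came to whole reads to within 0.1.

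Log2(value + 1) was fitted with limma 3.58.1 in R 4.3.3 (trended, robust prior), 1 model per tissue and 1 over both. A gene was tested if it reached 1 in 3 marrow libraries, 2 spleen libraries or, over both tissues, 2 libraries (12442 in marrow, 13945 in spleen, 14513 over both), all 47 members among them, and p values adjusted over all genes by Benjamini and Hochberg within each comparison. The steps were checked on simulated data. The labels give separate biological replicates. Named genes are 8 fixed members and, per comparison, up to 3 called members per direction with groups apart and the largest change. Further members, named to fill in roles, were chosen after their values were seen. Members and lists were chosen with earlier results of these data known. Coordinates are from GENCODE M21. Alternatives were 3 rescalings, no filter, a pseudocount of 0.1, fits of the compared groups alone, each library left out and a replicate block. Removal of the length and GC trend and of 5 spleen libraries were chosen after seeing the data.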

Additional observations from a re-analysis of the deposited data

Results flagged for a closer look

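Of 96 checks of single groups of 4 to 6 libraries, 11 had a library far from the rest, where chance gives about 1 in 20 for independent checks. These checks covered 15 genes in the same libraries and are not independent, so no excess over chance is read from them. After 1 defeat in marrow, Rrm2 read 202 in D18 against 230 to 235 in the other libraries, Gins2 read 24.3 in D16 against 21.4 to 21.6, and Ccne2 read 30.5 in D17 against 21.1 to 22.5. After 10 defeats in marrow, D5 was high for Tyms (74.5 against 50.4 to 56.8), Orc1 (7.71 against 4.13 to 4.77) and Prim2 (17.1 against 13.3 to 14.3). In spleen, Pola2 read 21.9 in control C4 against 16 to 16.6, and Cdc6 read 39.6 in D5 after 10 defeats against 15.7 to 22.8. After rest in spleen, D2 was high for Tyms (150 against 53.8 to 62.7), Ccne1 (53.3 against 24.5 to 29.0) and Tk1 (135 against 60.3 to 64.7).

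The 10-defeat response differed between tissues, by the test of the difference, for 40 members, among them Orc1 (3.70), Ccne2 (3.69) and Gins2 (3.46), which were 2.99, 2.14 and 2.23 without the 5 steep spleen libraries, where Cdc6 (2.85) and Ccne1 (2.78) exceeded the last pair. The step from 10 defeats to rest differed for 28 members, among them Ccne1 (-1.89), Orc1 (-1.83) and Gins2 (-1.80).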

How the results depend on the processing

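No called change of a gene named by the rule changed sign under any alternative run, whereas Rfc2 and Ung, outside the rule, did in spleen after 10 defeats with equal column totals. The counts of members called that moved by over 1.5 times were the following, and the cause was not tested. With quantile normalization, marrow from 4 to 10 defeats had 1, spleen after 1 defeat 1, rested spleen 20 against controls and 1 against 10 defeats. With median-ratio rescaling, marrow after 4 defeats had 1, rested marrow against 10 defeats 11 and rested spleen against 10 defeats 1. With equal column totals, rested marrow against 10 defeats had 33, marrow from 4 to 10 defeats 0, spleen after 10 defeats 22, rested spleen 0 against controls and 1 against 10 defeats, spleen from 4 to 10 defeats 5, and the tissue difference of the 10-defeat response 24. With no filter, marrow from 4 to 10 defeats had 0, rested spleen 4 against controls and 1 against 10 defeats, and spleen from 4 to 10 defeats 0. With a pseudocount of 0.1, rested spleen against 10 defeats had 0.

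Fitted on the compared groups alone, rested marrow against 10 defeats had 9, marrow from 4 to 10 defeats 0, spleen after 1 defeat 2, rested spleen 18 against controls and 0 against 10 defeats, spleen from 4 to 10 defeats 0, and the tissue difference of the rest step 10. With length and GC trends removed, rested spleen against 10 defeats had 12. Without the 5 steep spleen libraries, rested spleen had 22 against controls and 0 against 10 defeats, and spleen from 4 to 10 defeats 0. Of all genes, 16.6% were called in rested spleen against controls without these libraries, and 7.26% with them. Leaving out 1 library at a time, the counts ran from 16 to 26 in marrow after 10 defeats, 6 to 23 in rested marrow against 10 defeats, 0 to 18 in marrow from 4 to 10 defeats, 37 to 39 in spleen after 10 defeats, 0 to 7 in rested spleen against controls, 0 to 28 in rested spleen against 10 defeats, 0 to 28 in spleen from 4 to 10 defeats, 40 to 41 for the tissue difference of the 10-defeat response, 21 to 34 for that of the rest step, and 40 to 43 between control tissues. They stayed at 0 in the other comparisons.

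Library numbers are shared between tissues, but the labels do not say that same-numbered libraries share an animal, so the numbers were not taken as pairs. Deviations of same-numbered libraries correlated above 0.1 in 7 of 15 pairs (-0.219 to 0.404). Such correlations between different tissues cannot settle whether an animal is shared. With a replicate block 40, 29 and 43 members were called for the 10-defeat difference, the rest step and the control tissues, against 40, 28 and 43. Groups of 2 spleen libraries, unstated scaling and estimated depth limit the precision.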
